A study of Mus musculus with 2 samples.

Results

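The genes of translation initiation and elongation were taken as every symbol of the deposited table that begins with Eif or Eef followed by a digit, which gave 66 of the 23233 genes listed. Protein synthesis starts when initiation factors (eIFs) load the initiator tRNA and the small ribosomal subunit onto a capped mRNA and select a start codon. Elongation factors (eEFs) then deliver each aminoacyl-tRNA and move the ribosome along the message. Initiation is held back at 2 well-known points: kinases that phosphorylate eIF2, and binding proteins that keep the cap-binding factor eIF4E from its scaffold eIF4G. In skin, the rate of protein synthesis is known to differ between follicle stem cells and their dividing progeny.

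The study separated cells of ventral skin from 7-day-old wild-type C57BL/6 mice by flow cytometry, after staining with a polyclonal antibody against ZIP10, a zinc importer. The 2 groups were ZIP10-positive and ZIP10-negative cells, with 1 library of polyadenylated RNA each. The titles name hair follicles as the source, while the protocol describes digested ventral skin with no sort on a cell type. Dead cells were marked with 7-AAD. How many animals were used, and whether they were pooled, the labels do not say. With 1 library per group there is no replicate error and no test, so every difference below describes these libraries and not the conditions.

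Values are in RPKM, reads scaled to transcript length and library depth, so levels can be compared between genes. The depth estimated from the values and annotated transcript lengths was 2.78e+06 reads for ZIP10-positive and 2.71e+06 for ZIP10-negative cells. The 95% intervals given with fold differences are exact binomial intervals on the reads estimated for that gene, and cover counting error only. The gene of ZIP10 itself, Slc39a10, had 49.4 RPKM in the positive and 11.1 RPKM in the negative sort, a check of the labels and not a finding. The 7 hair follicle markers were all above 1 RPKM in both libraries and summed to 1270 RPKM against 641 RPKM, with none at 0. The 5 basal keratinocyte markers summed to 2293 against 774 RPKM, the 5 fibroblast markers to 398 against 348 RPKM and the 5 melanocyte markers to 280 against 200.1 RPKM. Relative to the median gene, explained below, the median log2 ratio was 0.11 for follicle and 0.31 for keratinocyte markers. It was -0.83 for fibroblast and -0.40 for melanocyte markers, and none of the melanocyte markers lay above the median gene. The fibroblast markers were split: Lum and Dcn lay above it at 1.22 and 0.73, and the other 3 below it. In the ZIP10-negative library 6 of 6 erythroid markers were at least 2-fold higher as deposited, against 3.55% of all genes that reached 1 RPKM in either library. Their summed level was 283685 RPKM against 16376 RPKM. All 4 measured T cell markers were also at least 2-fold higher there, at 674 against 116 RPKM summed. In the ZIP10-positive library 5 of 5 macrophage markers were at least 2-fold higher as deposited, against 44.1% of all genes that reached 1 RPKM in either library. They summed to 1116 against 49.3 RPKM, with Lyz2 listed at 0 in ZIP10-negative cells. So were 4 of 5 mast cell markers, at 299 against 14.3 RPKM. Relative to the median gene, explained below, 4 macrophage and 4 mast cell markers were at least 2-fold higher, against 14.7% of those genes. All 6 erythroid and 4 T cell markers were at least 2-fold lower, against 11.4%. The part of these other cells in the values below was not tested, and fewer cells of a type cannot be told apart from less RNA per cell.

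Most genes had a higher RPKM in the ZIP10-positive library, so the position of the median gene serves as the reference. Globin genes made up 3.46% of the summed RPKM of the ZIP10-positive and 59.4% of that of the ZIP10-negative library. The part of this difference in the deposited ratios was not tested. Among 9620 genes at 1 RPKM or more in both libraries the median ratio of positive to negative was 1.97, a log2 ratio of 0.98. Log2 ratios below are log2((positive + 1)/(negative + 1)), positive over negative, and "relative to the median gene" means after dividing that shift between the libraries. Folds and ratios given with an interval are plain RPKM ratios without a pseudocount. The comparison covers every gene that reached 1 RPKM in either library, 12249 in all and 60 of the 66 Eif and Eef genes. Both libraries were also scaled to the sum of all genes but the 50 most abundant (trimmed scaling) and to the sum without globin genes and the ribosomal RNA precursor Rn45s (globin-free scaling). These moved the zero point up by 0.28 and 0.42, and a gene or list that "turned lower" had a value below 0 there.

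As deposited, 35 of the 60 compared genes were at least 2-fold higher in ZIP10-positive cells, against 44.1% of all compared genes, and 1 was at least 2-fold lower, against 3.55%. Their median log2 ratio was 1.13, and that of all compared genes 0.87. Relative to the median gene 5 were at least 2-fold higher, against 14.7% of all compared genes, and 7 at least 2-fold lower, against 11.4%. The median was then 0.22, against 0.094 for all compared genes, but -0.058 under trimmed scaling, where that of all compared genes was -0.13. The order depended on level. Relative to the median gene, members at 10 RPKM or more in both libraries had a median of 0.34, against 0.14 for all such genes. At 100 RPKM or more in both, it was 0.28 for 10 members, against 0.46. The 5 higher genes were Eef1b2, Eef1d, Eef1g, Eif1ax and Eif3i, and the 7 lower ones Eif3j, Eif3c, Eef2k, Eif4g2, Eif4enif1, Eif5 and Eif1. The share of higher genes lies below that of all compared genes and the share of lower ones near it. The members are more abundant, however, at a median of 42.4 RPKM against 7.02 RPKM for all compared genes in ZIP10-positive cells. At 10 RPKM or more in both libraries, 5 of 39 members were at least 2-fold higher relative to the median gene and 5 lower. Of all 2807 genes at that level 334 and 249 were, so the share of higher members was not below theirs. In direction alone, 52 of the 60 were above 0 as deposited, against 82.7% of all compared genes, and 36 were above the median gene, against 54.5%. Under trimmed scaling 29 were above 0, against 44% of all compared genes, none at least 2-fold higher, against 10.5%, and 10 at least 2-fold lower, against 16.2%. Under globin-free scaling 24 were above 0, against 38.7%, none at least 2-fold higher, against 8.99%, and 11 at least 2-fold lower, against 19.2%. Single members spanned a range from -1.87 to 1.25 relative to the median gene.

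**Figure D1:**
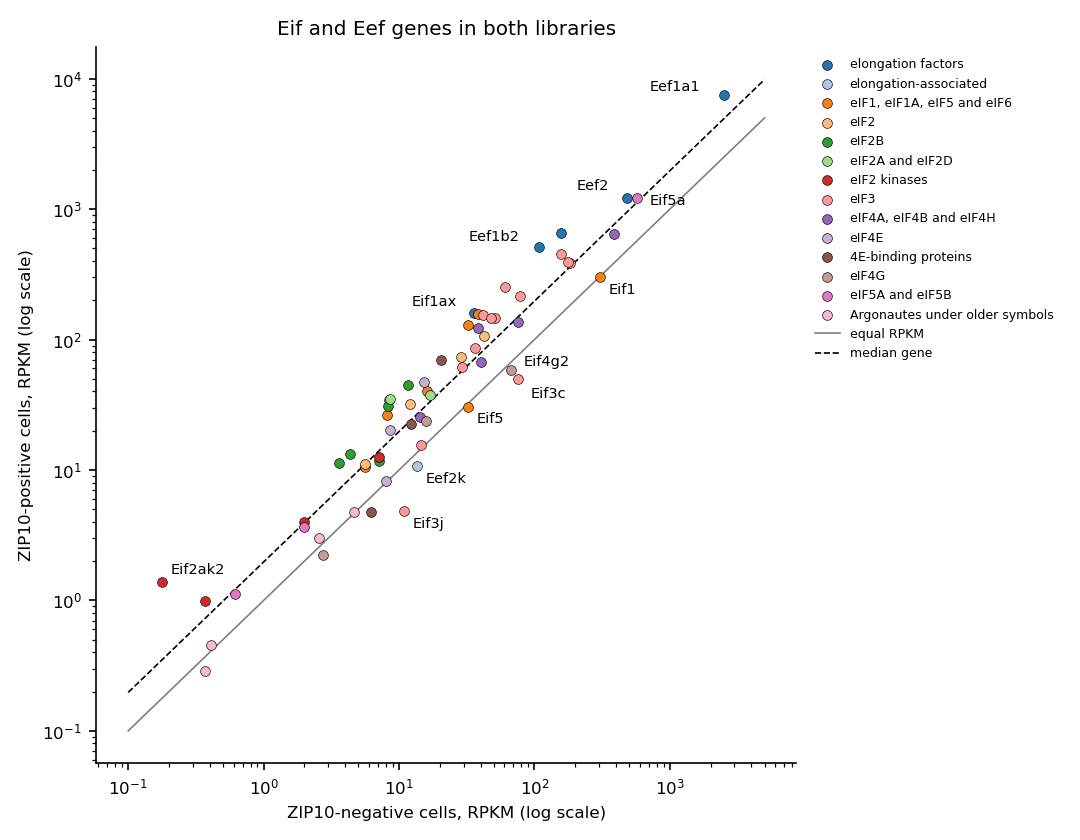
RPKM of each Eif or Eef gene in ZIP10-negative (x axis) and ZIP10-positive cells (y axis), both on log scales, with 1 point per gene coloured by role; the 3 genes listed at 0 in both libraries are left out. The solid line marks equal values and the dashed line the median gene, a ratio of 1.97; Eef1b2 lies above the dashed line, while Eif1, Eif5, Eif4g2, Eif3c and Eif3j lie at or below the solid one.

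Promoter sequences near the start site are shown for Eef1a1, Eef2 and Eif1, which are among the most abundant members and lie on both sides of the median gene, and for the kinase gene Eif2ak2. They come from RefSeq on build GRCm38.p6, which differs from the authors' mm9, and run from 50 bases before to 30 bases after the annotated start, on the strand of the gene. Of the 66 genes 52 had a promoter window in that table, 48 under their own symbol and 4 under a synonym. Capitals mark TATAA in Eef1a1 and Eif1, CACGTG and then TATAA in Eef2, and, in Eif2ak2, GAAA and GAAAC with 2 bases of any kind between them.
Eef1a1, chr9:78481695-78481774, minus strand: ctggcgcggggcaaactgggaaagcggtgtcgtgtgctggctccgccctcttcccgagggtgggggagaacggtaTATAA
Eef2, chr10:81176581-81176660, plus strand: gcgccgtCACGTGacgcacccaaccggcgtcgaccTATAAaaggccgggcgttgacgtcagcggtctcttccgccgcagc
Eif1, chr11:100319899-100319978, plus strand: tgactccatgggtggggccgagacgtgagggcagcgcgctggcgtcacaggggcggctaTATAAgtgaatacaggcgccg
Eif2ak2, chr17:78882543-78882622, minus strand: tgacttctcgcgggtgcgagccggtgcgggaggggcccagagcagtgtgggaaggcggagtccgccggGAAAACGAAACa

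TATAA is the core of the TATA box, which positions the start of transcription, CACGTG is the E-box bound by Myc and related factors, and GAAA with GAAAC 2 bases further on is the core of the interferon-stimulated response element. Both strands of the window from 250 bases before to 50 after each start were searched, and the motifs do not overlap in the sequences shown. TATAA was found in 8 of the 52 genes with a window, or 15.4%, against 16.5% of 8654 compared genes with a window. These sets were formed differently, for this and the other motifs. The 52 had no minimum level and include 4 matched by synonym, while the 8654 reached 1 RPKM and were matched by symbol alone. CACGTG was found in 12, or 23.1%, against 11.8%. These 12 were Eef2, Eef2k, Eif1b, Eif3a, Eif3f, Eif3k, Eif4a1, Eif4e, Eif4g1, Eif4h, Eif5a and Eif5a2, which include genes on both sides of the median gene. The GAAA and GAAAC pair was found in Eif2ak2 and Eif2s1, or 3.85%, against 0.89%. In Eef1a1 and Eif1 the TATAA letters begin 26 and 10 bases after the annotated start, and in Eef2 they begin 15 bases before it. A match is a description of the letters only.

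Elongation factors had the highest median ratio of the role groups. They included Eef1a1, the most abundant member in both libraries, and Eef2, which Eif5a exceeded in ZIP10-negative cells at 575 against 482 RPKM. All 5 that were detected were at least 2-fold higher as deposited, against 44.1% of all compared genes, with a median log2 ratio of 2.06. Relative to the median gene 3 of them remained so, against 14.7% of all compared genes, at a median of 1.08. Abundant genes lay higher in general: of 283 genes at 100 RPKM or more in both libraries, 191 were at least 2-fold higher as deposited. Relative to the median gene 69 of these were, at a median of 0.46. All detected elongation factors but Eef1d reached that level. Eef1a1, which brings aminoacyl-tRNA to the ribosome, reached 7530 RPKM after the positive sort against 2518 RPKM in ZIP10-negative cells. It was the 7th most abundant gene of the ZIP10-positive and the 11th of the ZIP10-negative library. The difference was 2.99-fold (95% counting interval 2.93 to 3.06), or 0.60 on the log2 scale relative to the median gene.

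Subunits of the complex that recharges eEF1A with GTP were further apart. Eef1b2, an exchange factor subunit, stood at 511 against 109 RPKM, or 4.70-fold (4.28 to 5.18), and at 1.25 relative to the median gene. That was the highest of the 60 genes with a pseudocount of 1 or 5, while with 0.1 Eif2ak2 was higher, at 1.63 on few reads. Eef1d, another exchange factor subunit, stood at 159 against 35.6 RPKM, or 4.46-fold (3.76 to 5.32). Eef1g, the scaffold of the complex, stood at 654 against 156 RPKM, or 4.18-fold (3.85 to 4.54). All of these lay above Eef1a1 in ratio, and their counting intervals did not overlap that of Eef1a1. Within each library, which no scaling affects, the RPKM of Eef1a1 was 14.7 times that of Eef1b2 in ZIP10-positive and 23.2 times in ZIP10-negative cells.

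Eef2, the translocase, stood at 1220 RPKM against 482 RPKM, or 2.53-fold (2.44 to 2.63), closer to the median gene at 0.36. It turned to -0.053 under globin-free scaling. Its inhibitory kinase Eef2k went the other way, at 10.7 RPKM against 13.6 RPKM, a ratio of 0.79 (0.59 to 1.06) whose counting interval includes 1. Relative to the median gene Eef2k lay at -1.22 on the log2 scale. The RPKM of Eef2 was 114 times that of its kinase in ZIP10-positive and 35.4 times in ZIP10-negative cells. Eef1e1, named as an elongation factor but known as a scaffold protein of the multi-tRNA synthetase complex, stood at 34.4 against 8.38 RPKM. It lay just below 2-fold relative to the median gene, at 0.999, but at 1.05 with a pseudocount of 0.1. Eef1a2, the form of muscle and nerve cells, was listed at 0 in both libraries. Eef1a1 has many processed pseudogenes whose near-identical sequence can share its reads, so its level is uncertain to that extent.

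**Figure D2:**
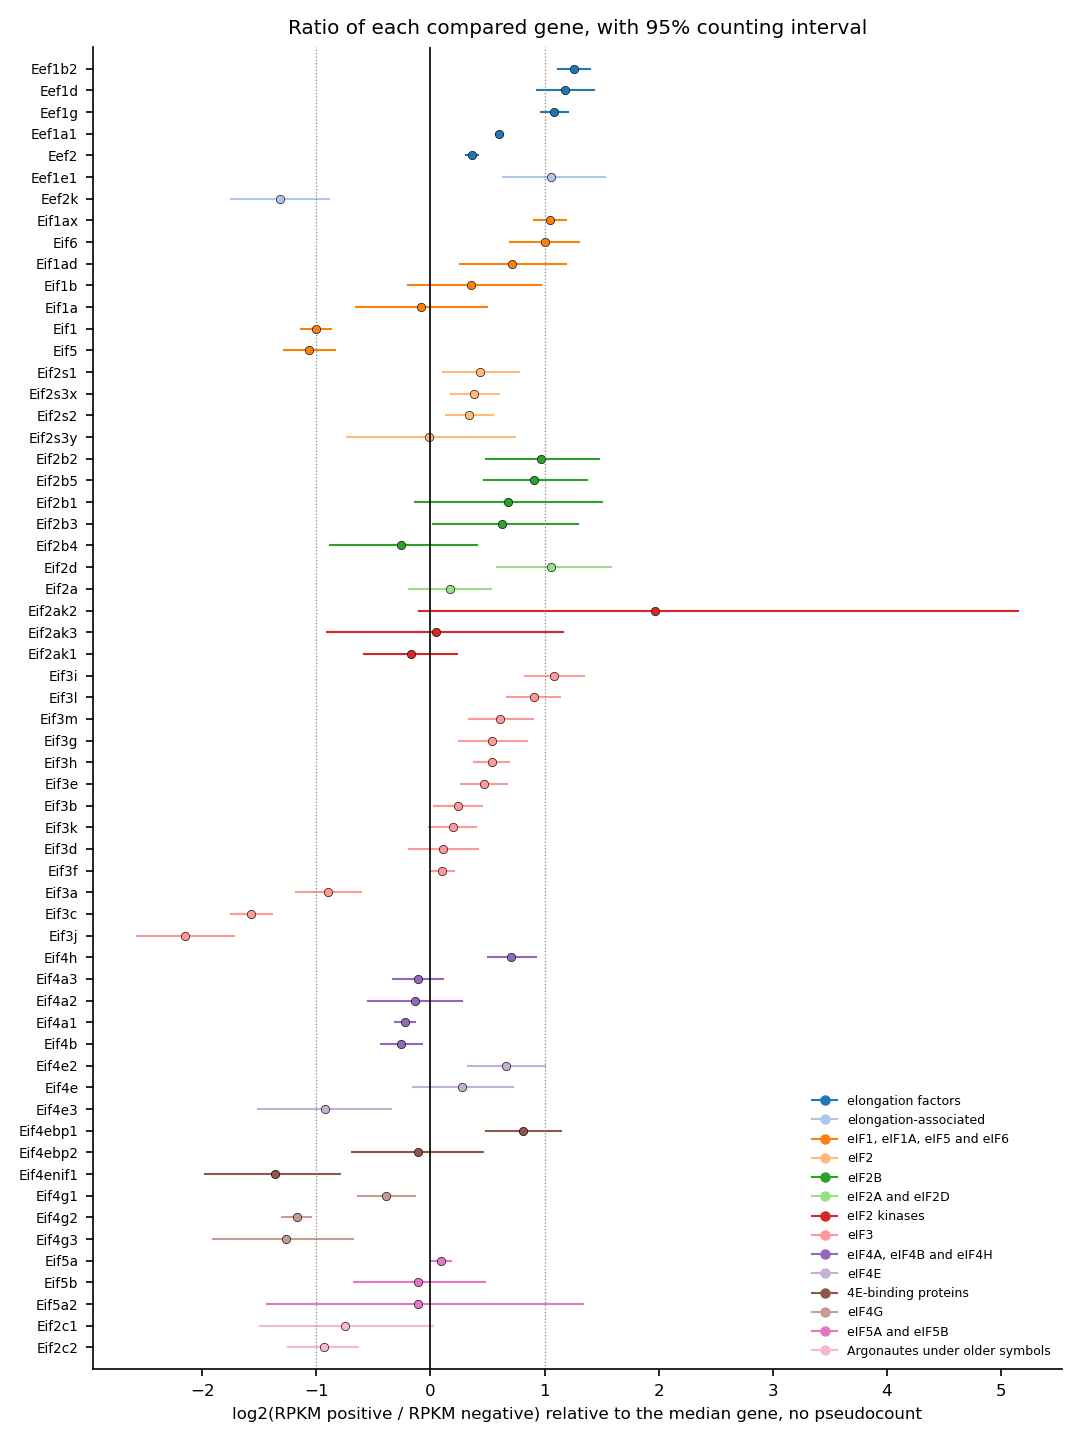
Log2 ratio of RPKM, positive over negative, relative to the median gene and without a pseudocount, for the 60 compared genes (1 row each, coloured by role); lines are 95% counting intervals from estimated reads and dotted lines mark 2-fold. Eef1b2, Eef1d and Eef1g lie near or past the right dotted line and Eif3j and Eif3c past the left one, while Eif2ak2, at an estimated 16 and 2 reads, has the widest interval.

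The first group of initiation factors acts on start codon selection and subunit joining, and it was divided. Eif1, which guards start codon selection, was the 275th most abundant gene of the ZIP10-positive and the 135th of the ZIP10-negative library. It stood at 301 RPKM against 306 RPKM, a ratio of 0.98 (0.90 to 1.08), and lay at -1.002 relative to the median gene. Eif5, which triggers GTP hydrolysis by eIF2 once the start codon is found, stood at 30.6 against 32.4 RPKM, a ratio of 0.95 (0.81 to 1.11), or -1.03 relative to the median gene. These partners in start codon selection had nearly equal RPKM in the libraries, where the median gene had a ratio of 1.97. The RPKM of Eif1 was 9.81 times that of Eif5 in ZIP10-positive and 9.44 times in ZIP10-negative cells.

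The eIF1A genes, whose product sits with eIF1 on the small subunit, lay higher. Eif1ax, the X-linked copy, stood at 156 against 38.2 RPKM, or 4.07-fold (3.69 to 4.49), and at 1.03 relative to the median gene. Eif1a, its autosomal copy, stood at 10.5 against 5.64 RPKM and lay near the median gene at -0.077. Eif1ax made up 93.7% of the summed RPKM of this pair in ZIP10-positive and 87.1% in ZIP10-negative cells, and reads of near-identical copies may be exchanged between them. The RPKM of Eif1 was 1.93 times that of Eif1ax in ZIP10-positive but 8.01 times in ZIP10-negative cells. Eif1b, a close relative of Eif1, stood at 40.3 against 16.0 RPKM, at 0.34 relative to the median gene and at -0.060 under globin-free scaling. It made up 11.8% of the summed RPKM of Eif1 and Eif1b in ZIP10-positive and 4.97% in ZIP10-negative cells. Eif6, which keeps the large ribosomal subunit from joining too early, stood at 128 against 32.5 RPKM. It lay just under 2-fold relative to the median gene, at 0.99, but at 1.001 with a pseudocount of 0.1.

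The subunits of eIF2, which carries the initiator tRNA, kept close to each other. Eif2s1, the alpha subunit that the eIF2 kinases phosphorylate, stood at 31.9 against 12.0 RPKM, or 2.66-fold (2.12 to 3.37). Eif2s2, the beta subunit, stood at 106 against 42.7 RPKM, or 2.49-fold (2.16 to 2.88). Eif2s3x, the X-linked gamma subunit, stood at 73.7 against 28.6 RPKM, or 2.57-fold (2.24 to 2.98). The intervals of these 3 subunits overlap, and relative to the median gene they lay between 0.33 and 0.41. Eif2s2 and Eif2s3x turned to -0.079 and -0.030 under globin-free scaling, and Eif2s1 stayed above 0 at 0.017. The beta to alpha ratio in RPKM was 3.33 in ZIP10-positive and 3.56 in ZIP10-negative cells. Eif2s3y, the Y-linked gamma gene, stood at 11.0 against 5.65 RPKM and made up 13.0% and 16.5% of the summed gamma RPKM, though the X and Y copies can share reads.

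Genes of eIF2B, the 5-subunit factor that reloads eIF2 with GTP, were mostly above the median gene. As deposited 4 of 5 were at least 2-fold higher, against 44.1% of all compared genes, and their median log2 ratio was 1.43, against 0.87. None reached 2-fold relative to the median gene, where 14.7% of all compared genes were at least 2-fold higher, at a median of 0.59. Eif2b2 was highest at 44.6 against 11.6 RPKM, or 3.86-fold (2.76 to 5.50). Eif2b5, the catalytic subunit, stood at 30.7 against 8.30 RPKM, or 3.70-fold (2.72 to 5.11). Eif2b4 was lowest at 11.7 against 7.11 RPKM, or 1.65-fold (1.07 to 2.62), and below the median gene at -0.23. Eif2d and Eif2a, which can bring tRNA to the ribosome without eIF2, stood at 34.9 and 37.4 RPKM against 8.52 and 16.9 RPKM. Eif2d lay at 0.995 relative to the median gene, at 1.05 with a pseudocount of 0.1, and above 0 under each scaling. Eif2a lay at 0.16 and turned lower under trimmed scaling.

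The eIF2 kinases had low levels, and the values of Eif2ak2, Eif2ak3 and Eif2ak4 rest on few reads. Eif2ak1, the heme-regulated kinase HRI known from red cell precursors, was the most abundant at 12.5 against 7.13 RPKM, or 1.76-fold (1.32 to 2.32), and at -0.15 relative to the median gene. Eif2ak3, the kinase PERK of endoplasmic reticulum stress, stood at 4.02 against 1.97 RPKM, or 2.04-fold (1.05 to 4.42), near the median gene at 0.035 and at -0.17 under trimmed scaling. Eif2ak4, the amino acid sensor GCN2, stood at 0.99 against 0.37 RPKM and missed the minimum of 1 RPKM. Eif2ak2, the double-stranded RNA sensor PKR whose promoter holds the interferon response letters, stood at 1.38 against 0.18 RPKM. That is 7.72-fold, but on an estimated 16 and 2 reads, with an interval of 1.83 to 70.0. HRI made up 66.2% of the summed kinase RPKM in ZIP10-positive and 73.9% in ZIP10-negative cells, PERK 21.2% and 20.5%, and PKR 7.30% and 1.85%. With a pseudocount of 1 none of the 3 compared kinases was 2-fold from the median gene, while with 0.1 Eif2ak2 was, at 1.63. The erythroid markers given above were higher in ZIP10-negative cells, and their part in the level of HRI was not tested.

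Of the regulators of these kinases, 2 of 6 were at least 2-fold higher by both measures, Prkra and Prkrip1, with none lower. The shares of all compared genes were 44.1% as deposited and 14.7% relative to the median gene. Prkra, the protein activator of PKR, stood at 20.5 against 4.09 RPKM. Prkrip1, named after its value was seen, stood at 6.44 against 0.76 RPKM, the latter under 1 RPKM. Hspa5, the chaperone that restrains PERK, stood at 142 against 89.2 RPKM, or -0.31 relative to the median gene. Over the 6 genes the middle value was -0.23. Among known targets of the integrated stress response, the program that eIF2 phosphorylation sets off, 9 of 15 compared genes were at least 2-fold higher as deposited, against 44.1% of all compared genes, and none lower, against 3.55%. Set against the median gene, 2 (Phgdh and Atf3) lay at least 2-fold above it and 1 (Ddit3) below, where 14.7% and 11.4% of all compared genes did. Atf3 was at only 0.83 RPKM in ZIP10-negative cells. The list median was 0.41. The serine synthesis genes Phgdh and Psat1 stood at 100.4 and 54.2 RPKM against 23.5 and 16.1 RPKM. Asns, asparagine synthetase, stood at 21.3 against 6.62 RPKM, and the transcription factor gene Atf5 at 57.8 against 48.4 RPKM, below the median gene at -0.71. Atf4, the central factor of the program and controlled mainly by translation, stood at 54.1 against 28.1 RPKM, at -0.033 relative to the median gene. Ddit3, which encodes CHOP, stood at 6.46 against 9.94 RPKM and at -1.42. Atf3, Atf4 and Ddit3 were named after their values were seen.

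The 13 subunits of eIF3, the scaffold that holds the small subunit to the mRNA, covered a wide range of ratios. As deposited 10 subunits were at least 2-fold higher, against 44.1% of all compared genes, and Eif3j was at least 2-fold lower, against 3.55%. The median log2 ratio was 1.20, against 0.87. Eif3i lay at least 2-fold above the median gene and Eif3c and Eif3j at least 2-fold below, where 14.7% and 11.4% of all compared genes did. Measured against the median gene the subunits centred on 0.24. Under trimmed scaling that median was -0.034. Eif3i stood at 254 against 60.6 RPKM, or 4.18-fold (3.50 to 5.02), and Eif3l at 154 against 41.6 RPKM, or 3.69-fold (3.14 to 4.33). Eif3h, the most abundant subunit in ZIP10-positive cells, stood at 451 against 158 RPKM, or 2.86-fold (2.57 to 3.18).

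Other subunits lay at the opposite end. Eif3a, the largest subunit, stood at 15.5 against 14.6 RPKM, a ratio of 1.06 (0.87 to 1.29), and at -0.84 relative to the median gene. Eif3c, which pairs with eIF3a in the core of the complex, stood at 50.0 RPKM against 75.3 RPKM, a ratio of 0.66 (0.59 to 0.75), and at -1.54. Eif3j, a loosely bound subunit, stood at 4.83 RPKM against 10.9 RPKM, a ratio of 0.44 (0.33 to 0.60), and at -1.87. That was the lowest of the 60 genes with a pseudocount of 1 or 0.1, while with 5 Eif3c was lower. Eif3a, Eif3c and Eif3j stayed below 0 under each scaling. The RPKM of Eif3i was 5.07 times that of Eif3c in ZIP10-positive but 0.80 times in ZIP10-negative cells, and that of Eif3h was 29.2 and 10.8 times that of Eif3a. These pairs set high subunits against low ones and differ in annotated length, with which ratios fell over all genes, as given below. Eif3i and Eif3h have 1123 and 1295 bases, and Eif3c and Eif3a 3383 and 5125 bases. Eif3b, Eif3d, Eif3f and Eif3k lay between 0.10 and 0.24 relative to the median gene and turned lower under trimmed scaling. The later annotation used here for lengths splits Eif3j into 2 genes, Eif3j1 and Eif3j2, so reads may be shared and its value is uncertain.

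Of the helicases and cofactors that prepare the mRNA leader, 4 of 5 lay below the median gene and 1 above it, where 54.5% of all compared genes lay above. Eif4a1, the main helicase that unwinds the mRNA leader, stood at 647 against 384 RPKM, or 1.69-fold (1.59 to 1.79), and at -0.22 relative to the median gene. Its relative Eif4a2 stood at 25.6 against 14.3 RPKM and made up 3.80% and 3.59% of their summed RPKM. Eif4a3, a helicase of the exon junction complex, stood at 137 against 75.2 RPKM, or 1.82-fold (1.57 to 2.12). The helicase cofactors differed: Eif4b stood at 67.0 against 40.5 RPKM, or 1.65-fold (1.46 to 1.87), and Eif4h at 123 against 38.1 RPKM, or 3.22-fold (2.79 to 3.74). Their intervals do not overlap, and Eif4h, at 0.70, was the only one of these 5 genes above the median gene.

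The eIF4G scaffold genes had the lowest median of the role groups, at -0.90 relative to the median gene. None of the 3 lay above 0 relative to the median gene, under trimmed scaling or under globin-free scaling. Of all compared genes 54.5%, 44% and 38.7% did, respectively. Eif4g1, the main scaffold, stood at 23.8 against 15.8 RPKM, or 1.5-fold (1.27 to 1.79). Eif4g2, known as DAP5 and without an eIF4E site, stood at 58.7 RPKM against 67.2 RPKM, a ratio of 0.87 (0.80 to 0.96), and at -1.15. Eif4g3 stood at 2.25 RPKM against 2.75 RPKM, a ratio of 0.82 (0.53 to 1.23), and at -0.90. Eif4g1 made up 28.1% of the family's summed RPKM in ZIP10-positive and 18.4% in ZIP10-negative cells, and Eif4g2 69.3% and 78.4%.

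Among cap-binding proteins, Eif4e itself stood at 20.4 against 8.52 RPKM, or 2.39-fold (1.77 to 3.25). It lay at 0.26 relative to the median gene and at -0.13 under globin-free scaling. Eif4e2, a cap-binding repressor, was the most abundant of the family at 47.4 against 15.2 RPKM, or 3.11-fold (2.48 to 3.94). Eif4e3 stood at 8.29 against 7.99 RPKM, a ratio of 1.04 (0.69 to 1.55), and at -0.82 relative to the median gene. The share of Eif4e in the family's summed RPKM was 26.8% in ZIP10-positive and 26.9% in ZIP10-negative cells, while that of Eif4e3 was 10.9% and 25.2%. Eif4e1b, a germline relative, was listed at 0 in both libraries.

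The 4E-binding proteins, which keep eIF4E from eIF4G until the kinase mTOR phosphorylates them, differed from each other. Eif4ebp1 stood at 70.3 against 20.4 RPKM, or 3.45-fold (2.76 to 4.37), at 0.79 relative to the median gene and above 0 under each scaling. Eif4ebp2 stood at 22.5 against 12.3 RPKM, or 1.82-fold (1.22 to 2.71), and at -0.11. Eif4ebp1 made up 75.8% of the RPKM of this pair in ZIP10-positive and 62.3% in ZIP10-negative cells. Its RPKM was 3.45 times that of Eif4e in ZIP10-positive and 2.39 times in ZIP10-negative cells. Eif4ebp3 was listed at 0 in both libraries. Eif4enif1, the shuttling eIF4E-binding protein 4E-T, stood at 4.73 RPKM against 6.16 RPKM, a ratio of 0.77 (0.50 to 1.14), and at -1.14 relative to the median gene.

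**Figure D3:**
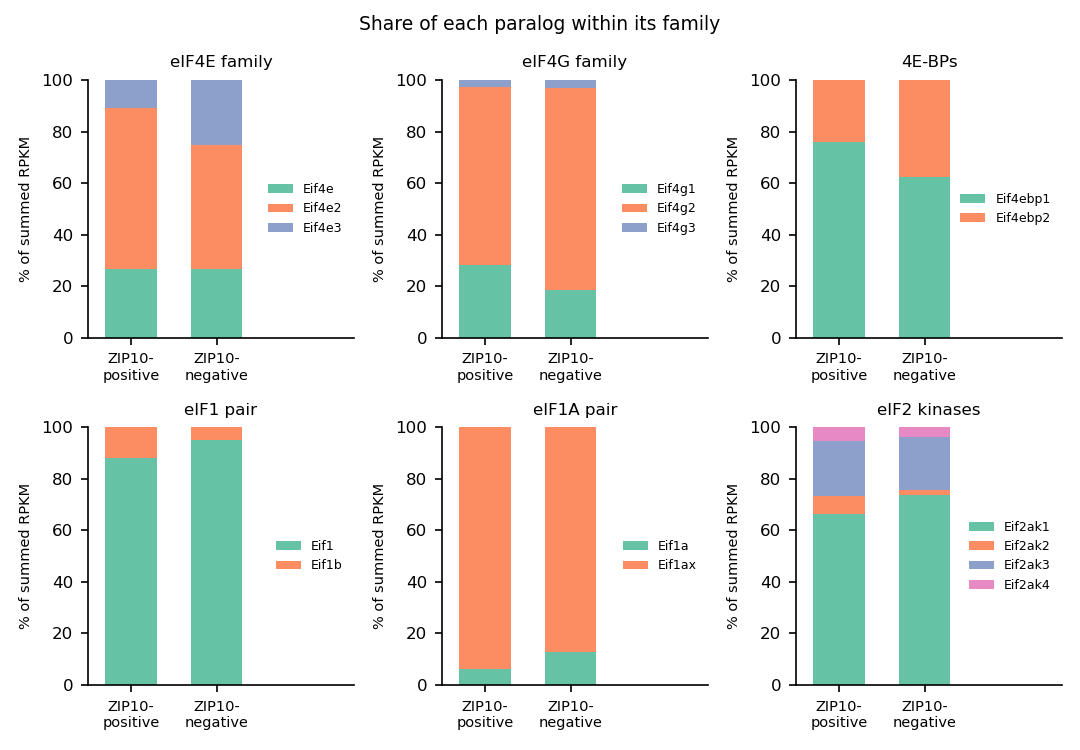
Stacked bars of the share of each gene in the summed RPKM of its family (y axis, percent) in the ZIP10-positive and ZIP10-negative library, 1 library each and no error bars. Eif4e had a share of 26.8% and 26.9%, while Eif4e3, Eif4g2, Eif4ebp2 and Eif1 took larger shares in ZIP10-negative cells.

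Eif5a, the hypusine-bearing factor that helps the ribosome over difficult stretches, was as abundant as Eef2 in ZIP10-positive cells at 1211 RPKM, against 575 RPKM in ZIP10-negative cells. Its ratio of 2.10 (1.99 to 2.23) lay near the median gene at 0.095 and turned lower under trimmed scaling. Eif5a2 stood at 1.12 against 0.62 RPKM, under 1% of the pair, at 0.093% and 0.11%. Eif5b, the GTPase of subunit joining, stood at 3.64 against 1.99 RPKM and at -0.077 relative to the median gene. Of the hypusine and diphthamide enzymes, which modify eIF5A and eEF2, 5 of 6 were at least 2-fold higher as deposited, where 44.1% of all compared genes were, and none lower. Dohh alone lay 2-fold above the median gene, where 14.7% of all compared genes did, with a list median of 0.84. Dohh and Dhps, the hypusine enzymes, stood at 33.9 and 13.4 RPKM against 6.23 and 3.59 RPKM.

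The symbols Eif2c1 to Eif2c4 are older names of the Argonaute genes, which act in RNA silencing and are no initiation factors. Eif2c2, the slicing Argonaute, stood at 4.79 against 4.66 RPKM, a ratio of 1.03 (0.83 to 1.27). Eif2c1 stood at 2.98 against 2.55 RPKM, and Eif2c3 and Eif2c4 were under 1 RPKM in both libraries. The 2 compared Argonaute genes lay at -0.55 and -0.77 relative to the median gene and below 0 under each scaling. Without the Argonaute genes the median of the remaining 58 was 0.25, and the counts of genes 2-fold apart were the same.

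Annotated transcript length moved with the ratio, over all genes and over these ones. Across 11688 compared genes with a length, the median log2 ratio relative to the median gene went from 0.81 under 1000 bases to 0.13 at 2000 to 3000 bases and -0.39 over 6000 bases. Over the 60 Eif and Eef genes Spearman's rho of length and ratio was -0.43, and over all 11688 genes -0.35. These points share 2 libraries and are not independent, so the coefficients are descriptions. Set against the median of genes in the same length range, 31 members lay above and 29 below, with a median difference of 0.039.

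By this measure 1 member was 2-fold higher, Eif1ax at 1.23, and 5 were 2-fold lower, against 9.43% and 11.9% of all genes with a length. The 5 lower ones were Eif3j, Eif1, Eif3c, Eef2k and Eif4enif1. Eif1, of 1322 bases, was further from genes of its own length, at -1.55, than from the median gene. The elongation factors Eef1b2, Eef1d and Eef1g lay at 0.96, 0.88 and 0.80 above genes of their length, and Eef1a1 and Eef2 at 0.32 and 0.37. The eIF4G scaffolds remained below genes of their length, at a median of -0.51, but Eif4g1 differed by -0.18 only. Of the 13 eIF3 subunits 5 lay above genes of their length, at a median of -0.013. The lengths come from an annotation of another build, and what sets the length trend was not tested.

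**Figure D4:**
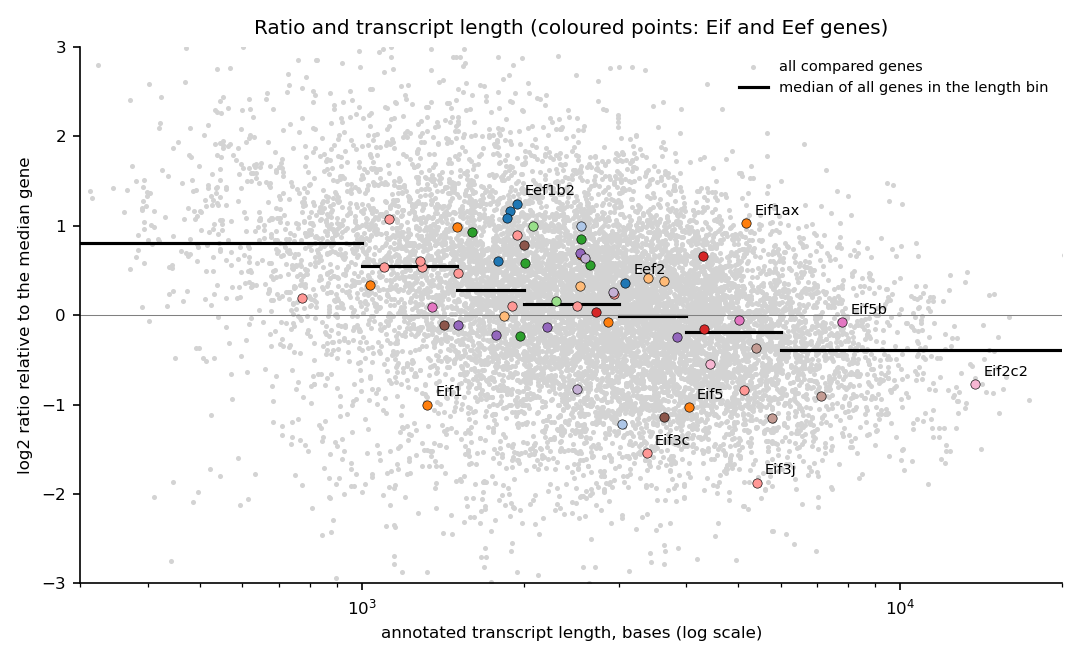
Log2 ratio relative to the median gene (y axis, pseudocount of 1) against annotated transcript length in bases (x axis, log scale) for all compared genes (grey; those beyond the axis range are not shown) and Eif and Eef genes (coloured by the same roles as in the scatter of RPKM values); black steps are the medians of all genes in 7 length ranges. The steps go from 0.81 for the shortest to -0.39 for the longest genes, and Eif1ax lies well above and Eif3j, Eif3c and Eif1 well below the step of their length.

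Other genes of translation gave a background to these values. Of 79 compared ribosomal protein genes, 77 were at least 2-fold higher as deposited, against 44.1% of all compared genes, and none lower. At least 2-fold above the median gene were 42, against 14.7% of all compared genes, and none lay 2-fold below it. Their median was 1.05, beside 1.08 for the elongation factors and 0.46 for all genes at 100 RPKM or more in both libraries. They are short, with a median length of 785.5 bases, and lay at a median of 0.36 above genes of their length. Rplp1 and Rps14 stood at 9999 and 5209 RPKM against 1590 and 817 RPKM, and pseudogenes can share reads with many of them. Of 23 aminoacyl-tRNA synthetase genes and partners, which charge tRNAs, 16 were at least 2-fold higher as deposited, beside 44.1% of all compared genes, and none lower. Against the median gene none lay 2-fold above and 1 below, where 14.7% and 11.4% of all compared genes did. The lower one was Eprs, named after its value was seen, at -1.22, and the list median was 0.49. Hars and Farsa stood at 25.6 and 29.4 RPKM against 6.81 and 8.16 RPKM, while Rars stood at 49.8 against 48.2 RPKM.

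Poly(A)-binding proteins join the mRNA tail to eIF4G. Of 8 such genes and partners, 3 were at least 2-fold higher as deposited, a share below the 44.1% of all compared genes, and none lower. None lay 2-fold above the median gene and 1 (Pabpc1) below it, where 14.7% and 11.4% of all compared genes did, with a median of -0.11. Pabpc1, the main cytoplasmic form, stood at 349 RPKM against 618 RPKM, at -1.80 relative to the median gene, and Pabpc4 lay at -0.69. Pabpn1, the nuclear form, and Paip2, an inhibitor of Pabpc1, stood at 99.0 and 103.9 RPKM against 37.3 and 39.5 RPKM, so the inhibitor and its target lay on opposite sides of the median gene. Paip2, at 0.41 relative to the median gene, came to -1.1e-04 under globin-free scaling.

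In the mTORC1 and MNK list, whose kinases act on the 4E-binding proteins and eIF4E, 8 of 17 were at least 2-fold higher as deposited, a share near the 44.1% of all compared genes, and 2 lower, against 3.55%. Against the median gene 2 (Rps6 and Tbc1d7) lay at least 2-fold above and 3 (Tsc2, Deptor and Rptor) below, where 14.7% and 11.4% of all compared genes did. The list median of 0.15 came to -0.12 under trimmed scaling. Rheb, the GTPase that activates mTORC1, stood at 36.5 against 10.6 RPKM, and Mknk2, a kinase of eIF4E, at 35.9 against 13.1 RPKM. Tbc1d7, a subunit of the TSC complex that restrains Rheb, stood at 13.8 against 0.78 RPKM. That lower value, and the 0.23 RPKM of Deptor in ZIP10-positive cells, lie under 1 RPKM, and no counting interval was estimated for this list. Tsc2, the catalytic subunit of that complex, stood at 2.36 RPKM against 9.50 RPKM, at -2.42, and was named, as were Deptor and Rptor, after values were seen. Among termination and recycling factors 6 of 10 were at least 2-fold higher as deposited, against 44.1% of all compared genes, and none lower. Against the median gene 2 (Mcts1 and Mcts2) lay at least 2-fold above and 1 (Gtpbp2) below, where 14.7% and 11.4% of all compared genes did, with a median of 0.45. Mcts1 and Denr, partners in recycling and reinitiation, stood at 37.4 and 40.3 RPKM against 5.48 and 12.5 RPKM, and Mcts2, a copy of Mcts1 with which it can share reads, at 16.4 RPKM against a listed 0. Of 10 mitochondrial translation factors 4 were at least 2-fold higher as deposited, a share near the 44.1% of all compared genes, and none lower. Against the median gene 2 (Tsfm and Mtrf1) lay at least 2-fold above and 1 (Mtif2) below, where 14.7% and 11.4% of all compared genes did. Mtrf1 was at only 0.22 RPKM in ZIP10-negative cells. The median of 0.081 came to -0.12 under trimmed scaling, and Gtpbp2, Mtrf1 and Gfm1 were named after their values were seen. Among the mitochondrial elongation factors, Tsfm and Tufm stood at 29.4 and 75.5 RPKM against 5.28 and 30.2 RPKM, and Gfm1 at 8.40 against 7.23 RPKM, or -0.67 relative to the median gene.

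**Figure D5:**
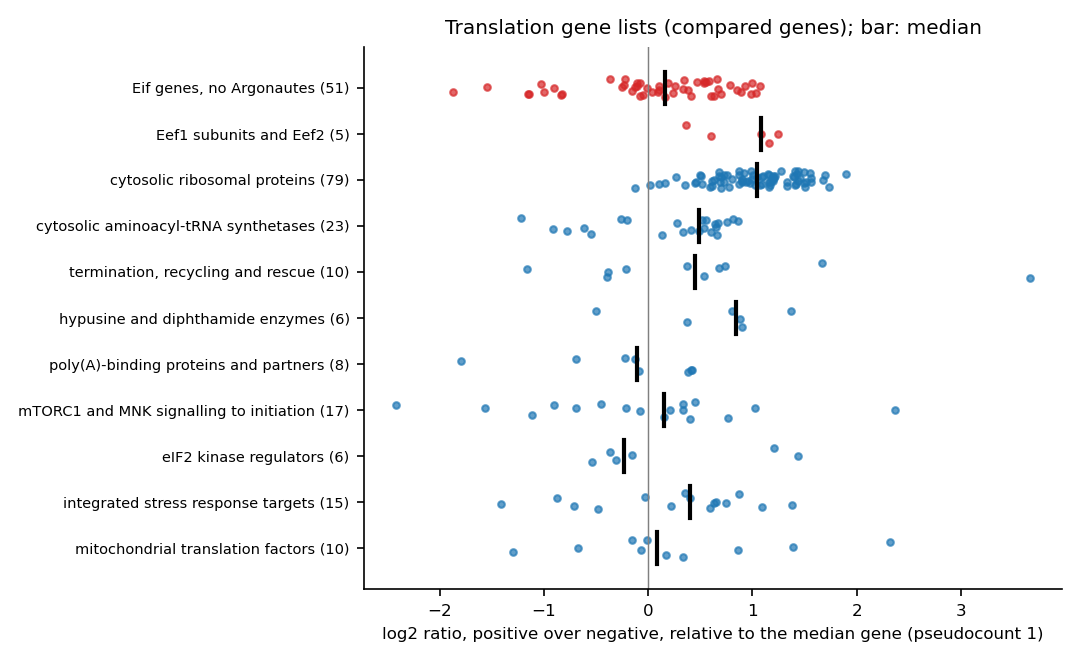
Log2 ratio relative to the median gene (x axis, pseudocount of 1) of each compared gene in 11 lists of translation genes, with the number of genes in brackets and a black bar at the median; red points are Eif and Eef genes and blue points the other lists, and points are spread vertically only for legibility. The medians of the elongation factors (1.08) and ribosomal proteins (1.05) lie furthest right, and those of the eIF2 kinase regulators (-0.23) and poly(A)-binding proteins (-0.11) left of 0.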

How the data were processed

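Each gene symbol has 1 RPKM value per library in the table the authors deposited, and the table's name gives the unit. Cutadapt, TopHat, Cufflinks and build mm9 are named in the submitters' processing notes; their versions, settings and annotation are not given here. To estimate relative depth, ratios between values of the 1389 genes at or under 1 RPKM were compared with ratios of whole numbers (largest 20): 64.6% matched to within 0.0012%, against 0.049% after rescaling, and the depth ratio was 1.03, positive over negative. Absolute depth is the most frequent estimate over 628 single-transcript genes, each shortened by 199 bases, with 23.1% of them inside 1.4% of it. Lengths are medians of GENCODE vM21 coding transcripts with a RefSeq accession, so reads per gene are rough. Counts of genes use a pseudocount of 1, a minimum of 1 RPKM in a library and a 2-fold size, with no test. The 50 most abundant genes are those with the highest value in either library. The calculation was tested on simulated reads, with equal gene levels in both libraries apart from a uniform shift and a set of changed genes. The simulation held neither the globin difference nor the length trend of these data. Members, lists and rules were chosen with earlier results of these data known: each Eif or Eef gene may be named, and of other lists up to 4 genes at 10 RPKM or more furthest from the median gene, not all of which are printed. The motif search and the comparison by length were added after the values were seen. Python 3.11.15, pandas 2.3.3, numpy 2.4.6, scipy 1.17.1 and matplotlib 3.10.9 were used.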

Additional observations from a re-analysis of the deposited data

How the results depend on the processing

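With 1 library per group nothing could be tested, and counts of genes 2-fold apart relative to the median gene rest on the scaling. Of the 60 compared genes the 5 at least 2-fold higher became 9 with a pseudocount of 0.1, 2 with the median gene taken over genes at 10 RPKM or more in both libraries, and 0 under both trimmed and globin-free scaling; they became 19 at 1.5-fold and 1 against genes of the same length range. The 7 at least 2-fold lower became 3 with a pseudocount of 5, 11 under globin-free scaling and 11 at 1.5-fold. The 1 gene 2-fold lower as deposited became 0 with a pseudocount of 5. The median log2 ratio as deposited, 1.13, became 0.97 with a pseudocount of 5 and 1.29 where 10 RPKM had to be reached in either library. The median relative to the median gene, 0.22, reversed to -0.058 under trimmed and to -0.20 under globin-free scaling; it was 0.075 with the median gene taken over genes at 10 RPKM or more in both libraries, 0.34 with that higher minimum and 0.039 against genes of the same length range. The trimmed and globin-free scalings changed the sign of 7 and 12 of the 60 genes, respectively, and the other pseudocounts changed none. The cause of these shifts was not tested. No Eif or Eef gene was listed at 0 in 1 library only. No paired analysis was possible because each group has 1 library. Genes near 1 RPKM rest on few estimated reads and have wide counting intervals, as Eif2ak2 shows. The comparison without the Argonaute genes and that by length were chosen after seeing the data.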
